A study of Homo sapiens with 10 samples.

Results

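Cancer-testis antigen genes were followed as 4 members, PRAME, MAGEA1, MAGEB1 and CTAG2, out of 25275 gene symbols measured by RNA-seq in lymphoma cell lines. The members were picked by symbol with their levels in these data already known, so those levels are given as a description and carry no test. The series covers TMD8 and OCI-LY10, established human lines of diffuse large B-cell lymphoma of the ABC (activated B cell) type. In OCI-LY10 the 3 RNA-seq libraries comprise STAT3 shRNA 10, STAT3 shRNA 16 and 1 control shRNA. STAT3 is a transcription factor activated by cytokine receptors and JAK kinases, and the shRNAs ask which genes depend on it. Each shRNA was introduced by transduction and switched on for 2 days with doxycycline at 20 ng/ml, in control cells too. The 3 TMD8 libraries carry the same design, but the columns of their table bear no names. They are therefore given by position as TMD8 columns 1, 2 and 3, with no shRNA assigned to any of them. The other 4 samples of the series, STAT3 ChIP-seq with DMSO or AZD1480, were not analysed here.

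Cancer-testis antigens are proteins normally made in germ cells and placenta and re-expressed in many tumours, where T cells can recognise them. Many of their genes lie in multicopy families on the X chromosome and are held silent in somatic tissue by promoter DNA methylation. MAGE proteins bind RING-type ubiquitin ligases. PRAME is a leucine-rich repeat protein that serves as a substrate receptor of cullin 2 ligases and can repress retinoic acid receptor signalling. CTAG2 encodes LAGE-1, a close relative of NY-ESO-1. Of the members, 3 are X-linked, and PRAME lies on chromosome 22 within the immunoglobulin lambda variable region.

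Promoter sequence is shown for PRAME and MAGEB1, the members with high RNA in both lines and with an entry in the RefSeq promoter table (GRCh38.p14). For each gene the 250 bases before the start site richest in CpG are given, 5′ to 3′ on the gene's strand, with each CpG in capitals, since CpG methylation is the known means of silencing in this class. PRAME is chr22:22559266-22559515 on the minus strand, upstream of the outermost of 3 start sites. MAGEB1 is chrX:30246896-30247145 on the plus strand, upstream of the inner of 2 start sites.
PRAME: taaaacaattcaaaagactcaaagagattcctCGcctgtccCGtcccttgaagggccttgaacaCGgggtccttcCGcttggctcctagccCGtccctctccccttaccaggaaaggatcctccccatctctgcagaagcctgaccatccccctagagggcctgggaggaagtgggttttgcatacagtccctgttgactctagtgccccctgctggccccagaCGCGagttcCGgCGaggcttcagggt
MAGEB1: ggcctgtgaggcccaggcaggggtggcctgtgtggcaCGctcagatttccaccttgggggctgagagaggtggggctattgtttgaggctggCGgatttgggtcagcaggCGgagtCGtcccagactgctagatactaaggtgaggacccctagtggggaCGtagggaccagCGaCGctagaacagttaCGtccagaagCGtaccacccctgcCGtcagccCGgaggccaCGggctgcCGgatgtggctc
The PRAME window held 9 CpG and the MAGEB1 window 13, against a median of 11 over 35116 promoter windows of the same length. That median is over all windows, not over the richest of each gene, so the comparison is not like for like. The other PRAME windows held 8 and 4 CpG, and the outer MAGEB1 window held 1. The STAT consensus TTCNNNGAA, which reads the same on both strands, was absent from both sequences shown and occurred once in the window of the innermost PRAME start site. It was present in 6.57% of all windows. No methylation or STAT3 binding was measured in the values used here. MAGEA1 and CTAG2 are named only.

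Levels are given in FPKM as the authors deposited them, that is, fragments counted on a gene divided by its length and by the size of the library. In bulk RNA, fewer cells with a transcript and less of it per cell cannot be told apart. STAT3 itself stood at 11.1 FPKM with STAT3 shRNA 10 and 10.6 with STAT3 shRNA 16, against 16.5 in the control library of OCI-LY10. In TMD8 it was at 120.3, 24.3 and 22.5 FPKM in columns 1 to 3. The OCI-LY10 libraries fell into unlike sets. With small RNA genes left out, log2(FPKM + 1) over 23222 genes gave a Pearson's r of 0.997 for STAT3 shRNA 10 with STAT3 shRNA 16, and of 0.938 for each of them with the OCI-LY10 control. The control library had r between 0.975 and 0.985 with the 3 TMD8 columns, while the STAT3 shRNA libraries had 0.920 to 0.928 with them. These correlations describe genes of shared libraries and carry no p. Each shRNA has 1 library, so a difference between STAT3 shRNA and control in OCI-LY10 is a difference between libraries as labelled, and STAT3 depletion cannot be told apart from whatever else separates them. A control library that resembles the other line more than its own leaves the labels of the OCI-LY10 libraries in doubt. The correlations do not single out the control or the STAT3 shRNA libraries. Whether a library was exchanged was not tested. All differences between STAT3 shRNA and control given here carry that doubt. All 10 B cell markers, such as CD79A and PAX5, were at 1 FPKM or more in all 6 libraries. With STAT3 shRNA, the limma test below called 4 of them higher and 2 lower, beside 20.3% and 17.4% of all tested genes. CD79B, a B cell receptor chain, was at 1139 and 1226 FPKM with STAT3 shRNA 10 and 16, against 226 in the control library and 290 to 348 in TMD8. IRF4, a plasma cell and lymphoma transcription factor, was at 73.9 and 80.8 FPKM against 411, with 478 to 604 in TMD8. Whether these shifts, or those of the epithelial, fibroblast and melanocyte markers given further on, bear on the member levels was not tested. None of 7 T and NK cell or 6 myeloid markers reached 1 in any.

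PRAME was lower in both STAT3 shRNA libraries than in the OCI-LY10 control library, and it was abundant in TMD8. It stood at 14.2 FPKM with STAT3 shRNA 10 and 19.3 with STAT3 shRNA 16, against 115 in the control library. TMD8 columns 1 to 3 held 121, 119.6 and 115 FPKM. The STAT3 shRNA libraries, at a mean of 16.7 ± 3.67 FPKM (SD, n = 2), are the low ones, and the other 4 libraries lie close together. The level was 8.16-fold lower with shRNA 10 and 5.97-fold lower with shRNA 16 than in the control library. On the log2(FPKM + 1) scale the difference was -2.73. At least 4-fold lower in both STAT3 shRNA libraries were 648 of 11162 genes with a mean of 1 FPKM or more, which is 5.81%. Of those 648 genes, 374 (57.7%) were at 5 FPKM or more in all 3 TMD8 columns, as PRAME was. The share of all tested genes at that TMD8 level is not given, so the 57.7% has no background beside it. The tables of the lines were deposited separately, so levels set across them carry no test.

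MAGEA1 and CTAG2 showed the opposite distribution: they were high in the STAT3 shRNA libraries of OCI-LY10 and near or at 0 everywhere else. MAGEA1, the founding member of the MAGE family, stood at 80.9 FPKM with STAT3 shRNA 10 and 64.3 with STAT3 shRNA 16, against 0.185 in the control library. CTAG2 stood at 63.3 and 70.2 FPKM, against 0.110 in the control library. Both genes were listed at 0 in all 3 TMD8 columns. In OCI-LY10 they passed the filter of a mean of 1 FPKM only through the STAT3 shRNA libraries. The difference between STAT3 shRNA and control was 5.95 for MAGEA1 and 5.93 for CTAG2 on the log2(FPKM + 1) scale, which understates ratios to so low a control value. An exact 0 can be a failed estimate in this table. EHMT2, RING1, RXRB and TRIM27, broadly expressed genes that all lie on chromosome 6, were also listed at 0 in all 6 libraries. MAGEA1 and CTAG2, which are X-linked, had values above 0 in every OCI-LY10 library. Whether their TMD8 zeros are of the same kind was not tested. The TMD8 values are therefore described as listed at 0. CTAG2 is nearly identical in parts to CTAG1A and CTAG1B, and how the counting shared reads among them is not given in the sources used here. CTAG1A was listed at 0 in all 6 libraries.

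The on-off contrast of MAGEA1 and CTAG2 was shared by other genes. Outside small RNA genes, 105 of 23222 genes (0.452%) were at 5 FPKM or more in both STAT3 shRNA libraries and at most 0.5 in the control library. Of these 105, 93 (88.6%) were at most 0.5 FPKM in all 3 TMD8 columns too, and 0 were at 5 or more in all 3. In the reverse direction, 167 genes were at 5 FPKM or more in the control library and at most 0.5 in both STAT3 shRNA libraries, and 109 of them (65.3%) were at 5 or more in all 3 TMD8 columns. The shares of all genes at these TMD8 levels are not given, so these percentages have no background beside them. MAGEA1 and CTAG2 were chosen for this contrast, so their place among the 105 is a description.

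MAGEB1, a relative of MAGEA1 on the short arm of the X chromosome, was expressed in every library. It stood at 78.3 FPKM with STAT3 shRNA 10 and 77.9 with STAT3 shRNA 16, against 55.0 in the control library. TMD8 columns 1 to 3 held 29.4, 29.0 and 38.1 FPKM. All 3 OCI-LY10 values lay above all 3 TMD8 values, and the STAT3 shRNA libraries lay above the control library. The mean with STAT3 shRNA was 78.1 ± 0.262 FPKM (SD, n = 2), 1.42 times the control value, or a difference of 0.50 on the log2(FPKM + 1) scale. The control has no second library, so its own spread is unknown.

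**Figure D1:**
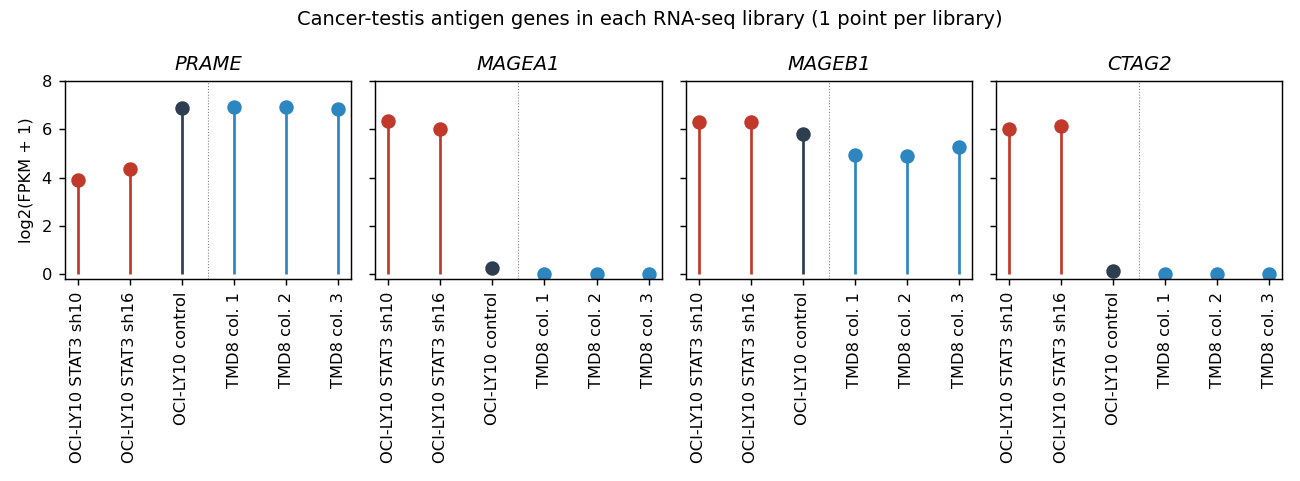
Level of each member as log2(FPKM + 1) on the vertical axis in each of the 6 RNA-seq libraries, 1 point per library with a line down to 0; red marks OCI-LY10 STAT3 shRNA, dark the OCI-LY10 control and blue the TMD8 columns. PRAME is low only in the 2 red libraries (14.2 and 19.3 FPKM), MAGEA1 and CTAG2 are high only there, and MAGEB1 is present in all 6.

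The order of levels within a library changed accordingly, and FPKM is per length, so genes may be ranked. In the control library PRAME exceeded 97.2% of all gene symbols, MAGEB1 94.1%, MAGEA1 48.2% and CTAG2 45.5%. With STAT3 shRNA 10, MAGEA1 came first at 95.7%, followed by MAGEB1 at 95.5%, CTAG2 at 94.4% and PRAME at 80.9%. With STAT3 shRNA 16 the order was MAGEB1 at 95.6%, CTAG2 at 95.1%, MAGEA1 at 94.6% and PRAME at 84.6%. The X-linked members therefore lay within a narrow band in the STAT3 shRNA libraries, and their order there differed between the shRNAs. In TMD8, PRAME exceeded 97.4% to 97.7% of symbols and MAGEB1 89.2% to 91.5%.

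Between the STAT3 shRNAs the members differed little. Dividing the level with shRNA 16 by that with shRNA 10 gave 1.37 for PRAME, 0.795 for MAGEA1, 0.995 for MAGEB1 and 1.11 for CTAG2. Among the TMD8 columns the highest value was 1.06 times the lowest for PRAME and 1.31 times for MAGEB1, while STAT3 itself was 5.36 times as high in its highest column as in its lowest. The columns were at least 1.5-fold apart for 17.9% of 10888 genes with a mean of 1 FPKM or more in TMD8, and for 0 of the 2 members that passed that filter. MAGEA1 and CTAG2 did not pass it.

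**Figure D2:**
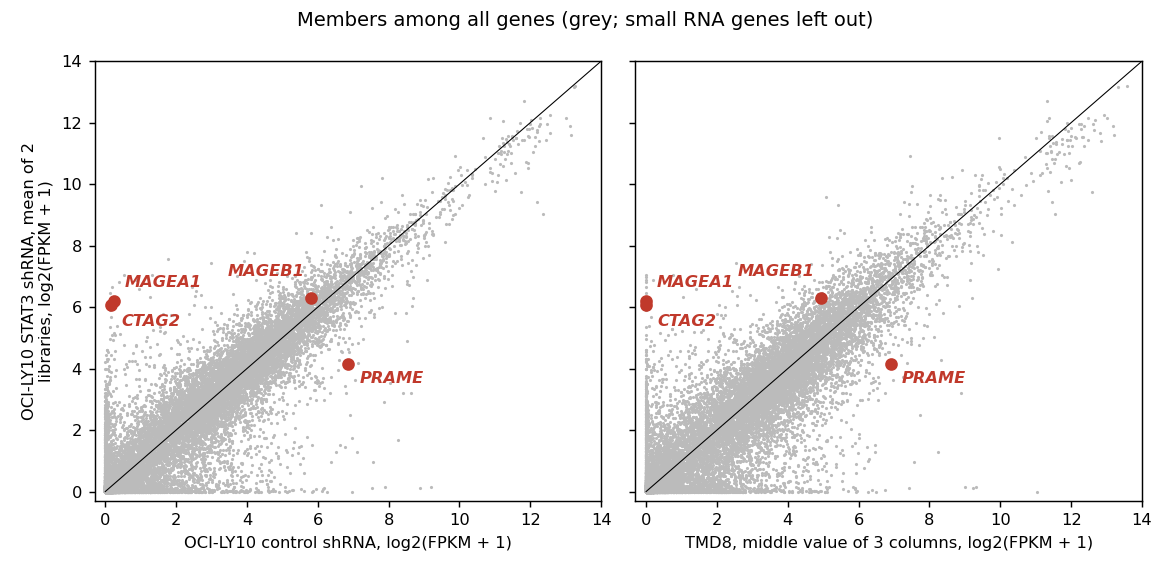
All genes outside small RNA genes (grey) by log2(FPKM + 1): the mean of the 2 OCI-LY10 STAT3 shRNA libraries (vertical) against the OCI-LY10 control library (left) and against the middle value of the 3 TMD8 columns (right), with the line of equality. MAGEA1 and CTAG2 sit at the left edge of both panels, PRAME below the line in both, and MAGEB1 above it.

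Most other cancer-testis genes were listed at 0 or below 1 FPKM in every library. Of 200 further symbols listed, with Y-linked genes left out, 184 were in the tables. Of these, 118 were listed at 0 in all 6 libraries, 48 stayed below 1 FPKM throughout, and 18 reached 1 FPKM in any library. The families nearest to the members had low or zero listed values. Of 12 other MAGEA genes, 9 were listed at 0 in all 6 libraries, and the highest value was 0.145 FPKM, for MAGEA8 with STAT3 shRNA 10. Of 9 other MAGEB genes 4 were at 0 throughout, with a highest value of 0.113 FPKM, and all 3 MAGEC genes were at 0. Of 12 PRAMEF genes, the PRAME relatives on chromosome 1, 11 were at 0 throughout. Many of these genes have near-identical copies (MAGEA3 and MAGEA6, the GAGE, XAGE, SSX and SPANX families). The broadly expressed genes on chromosome 6 named above are listed at 0 too. A listed 0 therefore does not show that a gene was silent.

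Of the listed cancer-testis genes, 12 passed the filter of a mean of 1 FPKM in OCI-LY10. The test was limma on log2(FPKM + 1), adjusted by Benjamini-Hochberg over all 11162 genes. It sets 2 STAT3 shRNA libraries against 1 control and assumes that the control varies as those 2 do. On simulated data the number of calls depended on the spread assumed, so single calls are weak. It called 20.3% of all tested genes higher and 17.4% lower. Of the 12 cancer-testis genes, 5 were called higher and 1 lower, but GPAT2, TEX15, LDHC and SSX5 passed the filter only through the STAT3 shRNA libraries and CT45A1 only through the control library, so these counts show no direction for the list. Without the filter, 60 cancer-testis genes were tested, of which 6 were called higher and 5 lower, beside 1299 and 2101 of all 18098 genes. For genes under 1 FPKM in the control library or in both STAT3 shRNA libraries, values are given without a p.

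GPAT2, a testis-expressed glycerol-phosphate acyltransferase, was at 21.2 and 24.7 FPKM with STAT3 shRNA 10 and 16 against 0.201 in the control library. It was between 0.115 and 0.158 FPKM in TMD8. TEX15, needed for meiotic recombination in the mouse, was at 4.72 and 3.99 FPKM against 0.00624, and 2 TMD8 columns listed it at 0. LDHC, the sperm isoform of lactate dehydrogenase, was at 4.18 and 3.52 FPKM against a listed 0 in the control library. SSX5, of the synovial sarcoma X family, was at 2.62 and 4.20 FPKM against a listed 0. These 4 genes were, like MAGEA1 and CTAG2, near or at 0 in the control library and in TMD8, and their levels with STAT3 shRNA were lower than those of MAGEA1 and CTAG2. SPAG9, a broadly expressed scaffold of JNK signalling, rose, at 16.9 FPKM with each STAT3 shRNA against 8.36 in the control library (adjusted p = 0.0213).

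CT45A1 was, like PRAME, lower with STAT3 shRNA. It was at 0.514 and 0.313 FPKM with STAT3 shRNA 10 and 16, against 3.19 in the control library, and TMD8 held 1.67 to 2.19 FPKM. Of 5 CT45 genes in the tables, 4 were listed at 0 in all 6 libraries. How reads were shared within the family is not given, so the CT45A1 value may not be that of this gene alone. PAGE5 did not reach the filter, and was listed at 0 and at 0.576 FPKM with the STAT3 shRNAs against 2.30 in the control library, with 2.29 to 4.03 in TMD8. SPA17, a sperm surface protein, was at 3.60 and 1.94 FPKM against 7.51 and did not pass the test (adjusted p = 0.0981). SAGE1 stayed below the filter, at 0.630 and 0.635 FPKM against a listed 0. PAGE2B was above 0 in 2 libraries only, at 0.212 FPKM with STAT3 shRNA 16 and 0.132 in TMD8 column 1. The broadly expressed genes RQCD1, NUF2 and KDM5B, which are also carried on cancer-testis lists, did not pass (adjusted p = 0.0987, 0.0934 and 0.694).

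**Figure D3:**
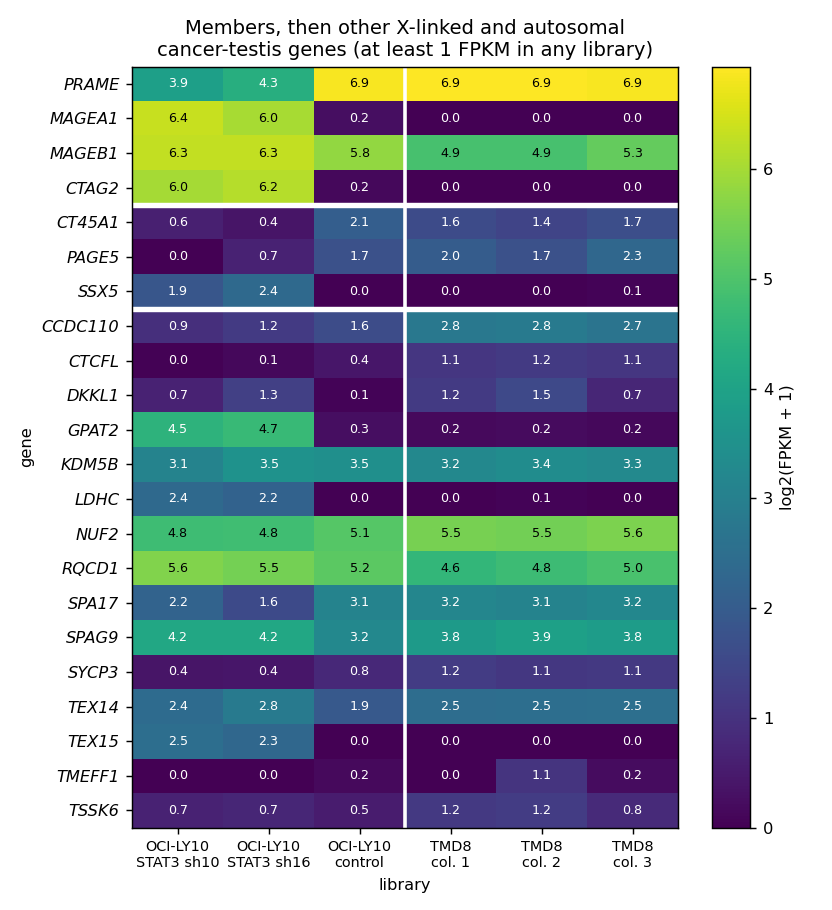
Level as log2(FPKM + 1), by colour and printed number, of the 4 members (top), then of 3 other X-linked and 15 autosomal cancer-testis genes that reached 1 FPKM in any library, in the 6 RNA-seq libraries (columns). MAGEA1 and CTAG2 share their contrast with SSX5, GPAT2, LDHC and TEX15, while CT45A1 and PAGE5 run with PRAME.

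Germ cell markers were near or at 0 in OCI-LY10. Of 8 such markers, among them DDX4 and the protamine genes PRM1 and PRM2, none reached 1 FPKM in OCI-LY10. Their summed level was 0.311 and 0.475 FPKM with STAT3 shRNA 10 and 16, against 0.899 in the control library and 1.31 to 1.54 in TMD8, where SYCP3, which is also among the listed cancer-testis genes, alone reached 1 FPKM. Markers of melanocytes, in whose tumours PRAME and MAGEA1 are known antigens, summed to 1.02 and 1.12 FPKM against 0.328 in the control library, and none of 5 reached 1 FPKM. Among 5 epithelial markers, EPCAM was at 4.39 FPKM with each STAT3 shRNA against a listed 0, and CDH1 was at 0.0102 FPKM and a listed 0 against 32.6 in the control library. CDH1 stood at 15.8 to 17.2 FPKM in TMD8. The summed level of 5 fibroblast markers was 0.241 and 0.166 FPKM with STAT3 shRNA 10 and 16, against 5.30 in the control library and 3.76 to 5.42 in TMD8. The sums rested on different genes. In the control library COL1A1 was at 3.60 FPKM and DCN at 1.14, while in TMD8 COL1A1 was at 0.391 to 0.866 and DCN at 2.79 to 4.48.

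The type II MAGE genes, which are expressed in many somatic tissues, were present in all 6 libraries where they passed the filter. Of 6 tested, 0 rose and 2 fell, beside 20.3% and 17.4% of all tested genes. MAGED1 fell to 43.3 and 50.0 FPKM with STAT3 shRNA 10 and 16, against 104 in the control library (log2 difference -1.14, SE 0.14, adjusted p = 0.0257), with 68.4 to 76.4 in TMD8. MAGEF1 fell to 22.0 and 21.6 FPKM against 38.6 (adjusted p = 0.0236). The median of the 6 was -0.45, against 0.06 over all tested genes.

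Of 45 genes that act in DNA methylation and chromatin silencing, 7 rose, 6 fell and 32 did not pass, no larger a share than the 20.3% and 17.4% of all tested genes called higher and lower. The deacetylase gene HDAC1 rose to 87.6 and 80.5 FPKM with STAT3 shRNA 10 and 16, against 34.5 in the control library (log2 difference 1.26, SE 0.11, adjusted p = 0.0171). The histone demethylase gene KDM1A was at 69.9 and 78.3 FPKM against 37.1 (adjusted p = 0.0265), and MBD4, a DNA glycosylase of methylated CpG sites, at 40.9 and 41.6 against 19.5 (adjusted p = 0.0172). MBD3, of the NuRD repressor complex, fell to 14.4 and 16.3 FPKM against 48.6 (adjusted p = 0.0161). The maintenance methyltransferase DNMT1 was at 70.0 and 71.8 FPKM against 51.7, and passed narrowly (adjusted p = 0.0495). Other methyltransferase genes lay lower with STAT3 shRNA. DNMT3B, at 2.31 and 1.99 FPKM against 3.92, was called lower, also narrowly (adjusted p = 0.0477). DNMT3A, at 2.25 and 3.55 against 6.04, did not pass (adjusted p = 0.108). The median over the list was 0.09. Without the filter on low values, 3 of 48 such genes were called higher and 2 lower, beside 1299 and 2101 of all 18098 genes.

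Of 13 tested partners of the members, 1 rose and 4 fell, beside 20.3% and 17.4% of all tested genes. The subunits with which PRAME forms its ligase did not pass the test: CUL2 was at 16.0 and 14.2 FPKM with STAT3 shRNA 10 and 16 against 18.4 in the control library, and TCEB1, TCEB2 and RBX1 had adjusted p between 0.493 and 0.782. RARA, a retinoic acid receptor that PRAME can bind, fell to 2.54 and 2.51 FPKM against 8.72 (log2 difference -1.46, SE 0.10, adjusted p = 0.0136). TRIM28, a ubiquitin ligase and corepressor bound by MAGEA proteins, fell to 318 and 320.1 FPKM against 513 (adjusted p = 0.0279). SNW1, a transcriptional co-regulator, fell to 35.0 and 38.0 FPKM against 63.4 (adjusted p = 0.0294). NSMCE1, a RING ligase subunit of the SMC5-SMC6 complex bound by a MAGE protein, rose to 58.9 and 63.2 FPKM against 27.7 (adjusted p = 0.0186).

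Of 17 listed retinoic acid response genes, 5 passed the filter. Of these, 1 was called higher and 3 lower, beside 20.3% and 17.4% of all tested genes. RARRES3 passed the filter only through the control library, and DHRS3 was just under 1 FPKM there, so these counts show no direction for the list. CDKN1A, a cell cycle inhibitor with many other inducers, was the most abundant, at 87.3 and 105.8 FPKM with STAT3 shRNA 10 and 16 against 61.3 in the control library, and did not pass (adjusted p = 0.0811). DHRS3, a retinaldehyde reductase induced by retinoic acid, was at 4.59 and 6.92 FPKM against 0.997. RARRES3 was at 0.168 and 0.230 FPKM against 2.81, and RDH10 at 2.07 and 1.36 against 5.89 (adjusted p = 0.0395). RARB, a classical target of its own pathway, did not pass the filter, at 1.17 and 1.08 FPKM against 0.0388. STRA6, TGM2 and ALDH1A1, also below it, were listed at 0 with both STAT3 shRNAs, against 1.585, 1.149 and 0.800 FPKM in the control. CRABP2 was at 0.281 and 0.384 FPKM against 1.14. Without the filter, 11 genes of the list were tested. Of these, 1 was called higher and 4 lower, beside 1299 and 2101 of all 18098 genes.

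Neighbouring genes were taken as the 4 nearest measured protein-coding genes on each side of each member in RefSeq gene order. Of 32 neighbours 16 were tested, and 4 were higher and 3 lower with STAT3 shRNA, shares near the 20.3% and 17.4% of all tested genes. Around PRAME, ZNF280A, GGTLC2 and VPREB1 were at or near 0 in all 6 libraries, and TOP3B, ZNF280B and IGLL5 did not pass. Farther out, GNAZ, a G protein subunit, fell to 3.01 and 4.06 FPKM with STAT3 shRNA 10 and 16 against 16.3 in the control library (adjusted p = 0.0221), with 29.9 to 33.9 in TMD8. RTDR1, which lies next to it, did not pass the filter, at 0.135 and 0.308 FPKM against 1.30.

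Around MAGEA1, 3 of 4 tested neighbours were called higher and 0 lower, beside 20.3% and 17.4% of all tested genes. PNMA3 passed the filter only through the STAT3 shRNA libraries, and 4 genes are too few to show a direction for the region. ZNF185 was at 11.8 and 12.8 FPKM with STAT3 shRNA 10 and 16 against 3.92 in the control library (adjusted p = 0.0165). PNMA3, of the paraneoplastic antigen family, was at 1.38 and 2.18 FPKM against 0.113, and ZNF275 at 8.59 and 7.81 against 4.74 (adjusted p = 0.0437). PNMA6A, on the other side of MAGEA1 from ZNF275 and below the filter, was at 0.341 and 0.497 FPKM against a listed 0, and at 0 in TMD8.

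Around CTAG2, the NF-kB regulator gene IKBKG rose to 20.2 and 18.6 FPKM with STAT3 shRNA 10 and 16, against 9.52 in the control library (adjusted p = 0.0246), though it has a near-identical pseudogene copy and is uncertain. MPP1, a membrane scaffold gene, fell to 1.97 and 1.92 FPKM against 8.48 (adjusted p = 0.0115), with 13.6 to 15.2 in TMD8. DKC1, between CTAG2 and MPP1, was high throughout and did not pass (adjusted p = 0.928). Around MAGEB1, its relatives MAGEB2, MAGEB3 and MAGEB4 were listed at 0 in all 3 OCI-LY10 libraries. CXorf21 fell to 10.6 and 9.35 FPKM against 16.8 (adjusted p = 0.0471).

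**Figure D4:**
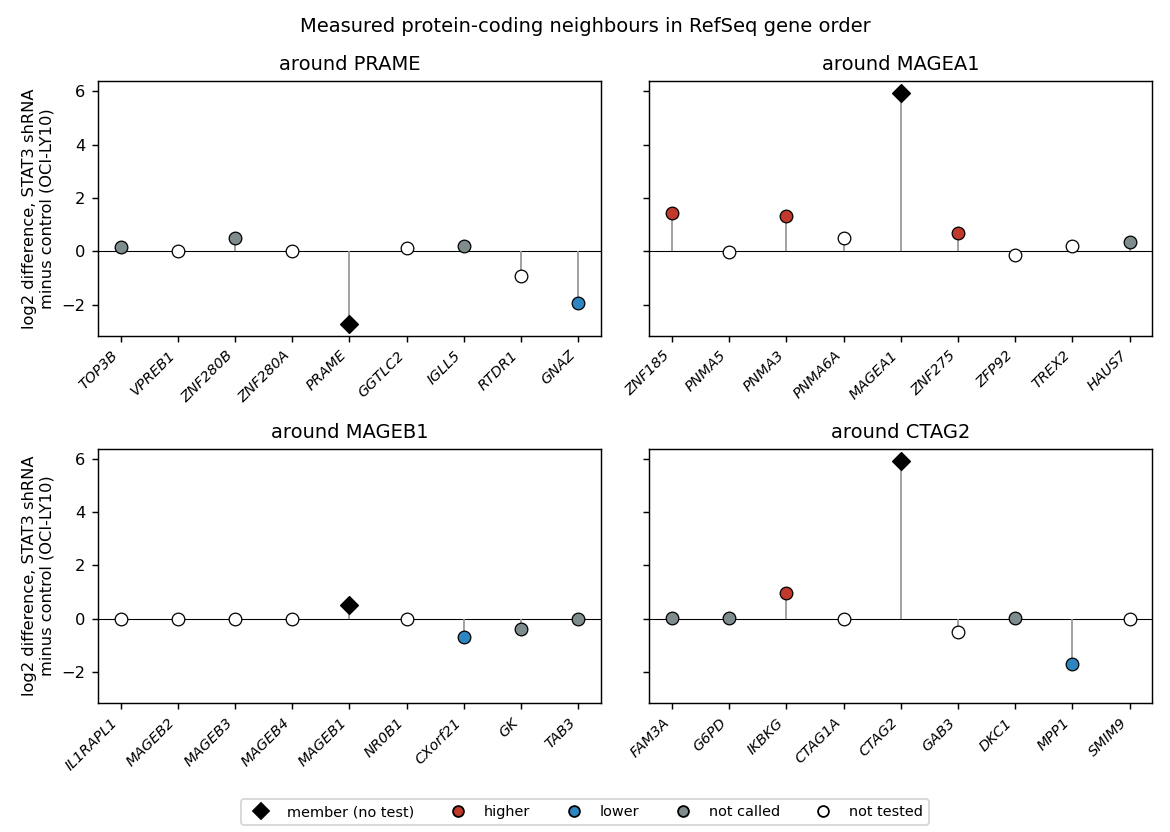
Difference in log2(FPKM + 1), STAT3 shRNA mean minus control in OCI-LY10 (vertical), for each member (black diamond) and its measured protein-coding neighbours in gene order (horizontal, not to scale). Circles are coloured by limma call. No neighbour differs by as much as MAGEA1 (5.95), CTAG2 (5.93) or PRAME (-2.73) beside it.

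The genes most like each member were taken by the smallest Euclidean distance between log2(FPKM + 1) profiles over the 6 libraries. MAGEA1 and CTAG2 were at a distance of 0.382 from each other, the nearest pair for MAGEA1. NLRP2, an innate immune sensor family gene, lay at 0.280 from CTAG2 and 0.459 from MAGEA1, with 60.2 and 58.1 FPKM with STAT3 shRNA 10 and 16 against 0.0936 in the control library. MIR650, at 63.9 and 87.5 FPKM against a listed 0, came next for both, but it is a short gene inside an immunoglobulin lambda segment whose reads cannot be told from those of its host. PRAME was nearest to MDK, a heparin-binding growth factor gene, at 0.782. MDK stood at 8.80 and 14.4 FPKM against 132 in the control library, and at 119.8 to 127 in TMD8. IVNS1ABP at 0.796 and CLECL1 at 0.818 followed. MAGEB1 was nearest to DNAJC9 at 0.325, DNMT1 at 0.331 and TMEM106C at 0.363.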

How the data were processed

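RNA-seq was measured in 6 libraries, 3 per line. The authors deposited FPKM values for every gene and library, in a table for each line. The submitters' processing notes name TopHat, Bowtie2 and hg19, with no version or role. The sources used here do not say which tool and annotation gave FPKM, nor whether strand was used, and read totals are unknown. Per the labels' protocols, the library kit was TruSeq RNA. OCI-LY10 columns were matched to samples by name. The TMD8 table has no header; the labels of the 3 TMD8 RNA-seq samples name it, so its columns were used by position. Rows that repeat a symbol, 2 in all, were summed with it.

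Depth relative to STAT3 shRNA 10, read from the commonest ratio of values under 0.1 FPKM, was 0.731 with STAT3 shRNA 16 and 1.52 in the OCI-LY10 control library. FPKM sums ran from 905356 to 1382655.

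The test was limma 3.58.1 (R 4.3.3), two-sided, with moderated variances following the mean level. It used log2(FPKM + 1) for genes averaging at least 1 FPKM in OCI-LY10, Benjamini-Hochberg adjustment, and a threshold of 0.05. The fit has 1 residual and 1.64 prior degrees of freedom. No label says that libraries came from separate cultures, so the spread behind every p-value is that of 2 libraries, STAT3 shRNA 10 and 16, and may be technical. Tested on simulated data, the fit returned the fold changes put in. How many it called depended on the simulation: nearly all with a smooth spread, none with a spread drawn per gene and few genes changed, and most of the larger ones with a spread drawn per gene and as many genes changed as were called here.

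The members and gene lists were chosen with earlier results of these data known. Named genes are the members, STAT3, up to 4 called genes per list with the largest difference, up to 6 cancer-testis genes per list with the highest level, the neighbours and the 3 nearest profiles. EPCAM, CDH1, SYCP3, CD79A, CD79B, PAX5, IRF4, CDKN1A, EHMT2, RING1, RXRB, TRIM27, RARB and the PRAME ligase subunits were named after their values were seen. The same holds for STRA6, TGM2, ALDH1A1, CRABP2, DNMT3A, DNMT3B, COL1A1 and DCN. A gene that the rule names is not reported here. RefSeq GRCh38.p14 gave gene order and promoter sequences, with entries for 2 of the members. Alternatives varied the pseudocount, filter and scaling.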

Additional observations from a re-analysis of the deposited data

How the results depend on the processing

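PRAME stayed lower, and MAGEA1, MAGEB1 and CTAG2 higher, with STAT3 shRNA than in the control library of OCI-LY10 under pseudocounts of 0.1 and 5 FPKM, median-of-ratios scaling, and with either STAT3 shRNA library left out. Quantile normalization was run for the counts of called genes only. A pseudocount of 0.1 FPKM gave log2 differences of 7.98 for MAGEA1, 8.31 for CTAG2 and 0.50 for MAGEB1. One of 5 FPKM gave 3.89, 3.81 and 0.47. The wide range for MAGEA1 and CTAG2 follows by construction from control values near 0, while MAGEB1 stood at 55.0 FPKM in the control library. Median-of-ratios scaling gave 0.43 for MAGEB1. Without STAT3 shRNA 10 or without STAT3 shRNA 16, which leaves 1 library against 1 and no test, the differences ran from -2.94 to -2.52 for PRAME, 5.78 to 6.11 for MAGEA1, 0.49 to 0.50 for MAGEB1 and 5.856 to 6.002 for CTAG2. The limma fit could not be made with a library left out, since no residual degree of freedom remains. Of 60 counts of called genes recomputed, 54 stayed within 1.5 times the value reported. Without the filter on low values, 18098 genes were tested, and 1299 were called higher and 2101 lower, against 2263 and 1943 with it. Of 60 cancer-testis genes then tested, 6 were called higher and 5 lower. Of the silencing genes 3 were called higher and 2 lower, and the cause was not tested. In the smallest lists, 0 retinoic acid response genes were called higher with a pseudocount of 5 FPKM and 2 partner genes were called higher without the filter. No paired analysis was possible because OCI-LY10 has 1 control library and the TMD8 columns carry no shRNA. Depth limits the low values: at listed zeros and well below 1 FPKM, a gene may rest on a few reads or none. No single cut holds, since FPKM divides by gene length. PAGE2B, for example, was at 0.212 FPKM with STAT3 shRNA 16 and listed at 0 with STAT3 shRNA 10. The control values of MAGEA1 (0.185 FPKM) and CTAG2 (0.110 FPKM) carry the same limit.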
